A study of Mus musculus with 18 samples.

Results

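The adipokines are proteins that fat cells release into the blood or act with nearby. The 7 described here are adiponectin (Adipoq), leptin (Lep), complement factor D or adipsin (Cfd), resistin (Retn), retinol binding protein 4 (Rbp4), nicotinamide phosphoribosyltransferase (Nampt) and chemerin (Rarres2). They were taken by gene symbol from every table of the series, 7 of the 25209 symbols listed for tissue and of the 24825 listed for cultures, and all 7 were found in all 18 samples. Mice gave 2 kinds of material: iWAT, inguinal white adipose tissue, which is subcutaneous fat of the groin, and ingSVF-derived adipocytes, which are cultures of the stromal-vascular cells of that depot. Each source was sampled from wild type (WT) and NFIA-Tg, a genotype carrying a transgene for the transcription factor NFIA. Neither the transgene's promoter nor the age of the mice is stated in the sources. Cultures were taken at day 0 and at day 7 of adipogenic induction. WT and NFIA-Tg cultures went through the same induction: 48 hours with isobutylmethylxanthine, indomethacin, dexamethasone, insulin, T3 and rosiglitazone, then insulin, T3 and rosiglitazone in serum-containing medium. All cultures sampled at day 7 had therefore seen rosiglitazone, an activator of PPARG. The 6 groups held 3 samples each. The labels do not say whether the samples of a group were separate animals or cultures, so the p-values measure the spread between these samples.

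Adipokines connect the fat store with the rest of the body. Adiponectin is made almost only by fat cells and acts through the receptors encoded by Adipor1 and Adipor2. Leptin reports the size of the fat store to the brain through the receptor encoded by Lepr. Adipsin cleaves factor B and so starts the alternative pathway of complement, and resistin is in mice a fat cell product that lowers insulin action. The other 3 have other sources too: Rbp4 carries retinol in plasma and comes largely from the liver, Nampt makes the precursor of NAD in nearly every cell and is also found outside cells, and Rarres2 is a chemoattractant prohormone read by the receptor encoded by Cmklr1. PPARG and the C/EBP proteins are the transcription factors best known for switching on Adipoq, Lep, Retn and Cfd as fat cells mature.

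The stretches of 250 bases before the transcription start are shown for the 3 genes that fell together in the day 7 comparison (Adipoq, Cfd, Retn), for Rbp4, which rose, and for Lep. They are RefSeq sequences of build GRCm38.p6, read 5′ to 3′ on the strand of the gene, and the capitals mark matches to the motifs named after them. Adipoq lies at chr16:23146286-23146535 on the plus strand, Cfd at chr10:79890603-79890852 on the plus strand, Retn at chr8:3655520-3655769 on the plus strand, Rbp4 at chr19:38124812-38125061 on the minus strand and Lep at chr6:29059971-29060220 on the plus strand.
Adipoq: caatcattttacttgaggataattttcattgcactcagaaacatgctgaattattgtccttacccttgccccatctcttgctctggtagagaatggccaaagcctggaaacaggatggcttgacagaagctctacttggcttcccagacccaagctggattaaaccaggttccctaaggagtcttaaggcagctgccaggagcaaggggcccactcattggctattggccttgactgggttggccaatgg
Cfd: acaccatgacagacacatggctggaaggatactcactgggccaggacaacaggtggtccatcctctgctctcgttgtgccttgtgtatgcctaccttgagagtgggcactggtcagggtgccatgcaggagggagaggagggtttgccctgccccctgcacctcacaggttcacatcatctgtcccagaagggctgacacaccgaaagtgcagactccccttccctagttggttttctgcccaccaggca
Retn: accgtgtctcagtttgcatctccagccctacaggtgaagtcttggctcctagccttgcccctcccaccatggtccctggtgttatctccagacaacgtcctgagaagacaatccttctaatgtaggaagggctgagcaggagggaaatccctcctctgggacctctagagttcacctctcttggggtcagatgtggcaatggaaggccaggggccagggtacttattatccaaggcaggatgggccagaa
Rbp4: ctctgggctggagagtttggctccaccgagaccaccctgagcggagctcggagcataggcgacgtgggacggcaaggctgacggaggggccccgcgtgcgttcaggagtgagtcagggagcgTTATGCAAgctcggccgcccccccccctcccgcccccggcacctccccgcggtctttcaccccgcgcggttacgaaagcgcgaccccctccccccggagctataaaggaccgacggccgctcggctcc
Lep: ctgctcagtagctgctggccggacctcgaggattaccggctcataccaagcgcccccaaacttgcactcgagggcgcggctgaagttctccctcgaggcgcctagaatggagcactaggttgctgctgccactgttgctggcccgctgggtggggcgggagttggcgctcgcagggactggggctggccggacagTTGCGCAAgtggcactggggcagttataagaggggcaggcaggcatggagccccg
Both strands were searched for a C/EBP motif (TTNNGCAA), a single NFI site (TTGGCA), a paired NFI site (TTGGC and its reverse complement with 5 bases between them, which shares TTGGC with the single site) and a PPAR response element (2 copies of AGGTCA with 1 base between them). Lep held the C/EBP motif as TTGCGCAA at positions -55 to -48 from its start, a palindrome that reads the same on both strands. Rbp4 held it as TTATGCAA at positions -128 to -121, and a second annotated start of Rbp4 held a single NFI site at positions -233 to -228. No match was found in these windows of Adipoq, Cfd, Retn or Nampt, which says only that those letters are not there. Among all 32851 promoters of the same length, 9.56% held the C/EBP motif, 12.28% the single NFI site, 0.04% the paired NFI site and 0.03% the PPAR response element.

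Levels are FPKM, sequenced fragments scaled to a length per gene and the size of the library. The culture tables gave whole reads when each FPKM was multiplied by the listed length, 16772594 to 28625625 reads per library, whereas no read depth could be recovered for iWAT, where FPKM added up to between 444682 and 487844 per library. The lengths listed differ between the sources (Adipoq 11432 bases for iWAT and 1232 for cultures). The iWAT length of Adipoq is its span on the genome, and which length entered the iWAT FPKM could not be recovered. Adipokine levels are therefore not compared between iWAT and cultures, and levels of different genes are ranked in the cultures only. Differences are given on the scale of log2(FPKM + 1), tested with limma across all genes and called at an adjusted p under 0.05. On that scale the change of a low gene is understated. A list of 25 mature adipocyte genes, such as Plin4 and Cidec, was used to check the labels. None of them was under 1 FPKM in all libraries of an iWAT group. In cultures labelled adipocytes they summed to 154 to 221 FPKM at day 0, where 14 to 15 of the 25 were under 1 FPKM in all libraries of a group, and to 27866 to 32488 FPKM at day 7. Lymphocyte and erythroid markers of the cultures were at or near 0 at both days.

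The gene of the transgene checks the labels. Nfia in WT iWAT was 3.73, 4.19 and 3.94 FPKM, and in NFIA-Tg iWAT 166, 99.6 and 157 FPKM, 4.81 ± 0.18 (SE) higher on the log2 scale (limma adjusted p = 3.77e-05). At day 0 it was 6.41 ± 0.10 FPKM (SD, n = 3) in WT and 11.9 ± 0.58 in the libraries labelled NFIA-Tg. At day 7 the order was the other way, 12.5 ± 0.52 in WT and 6.99 ± 0.48 in those labelled NFIA-Tg, a difference of -0.76 ± 0.05 (adjusted p = 3.34e-08). The day 7 level goes against the label, and the cultures are therefore written as WT-labelled and NFIA-Tg-labelled throughout.

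**Figure D1:**
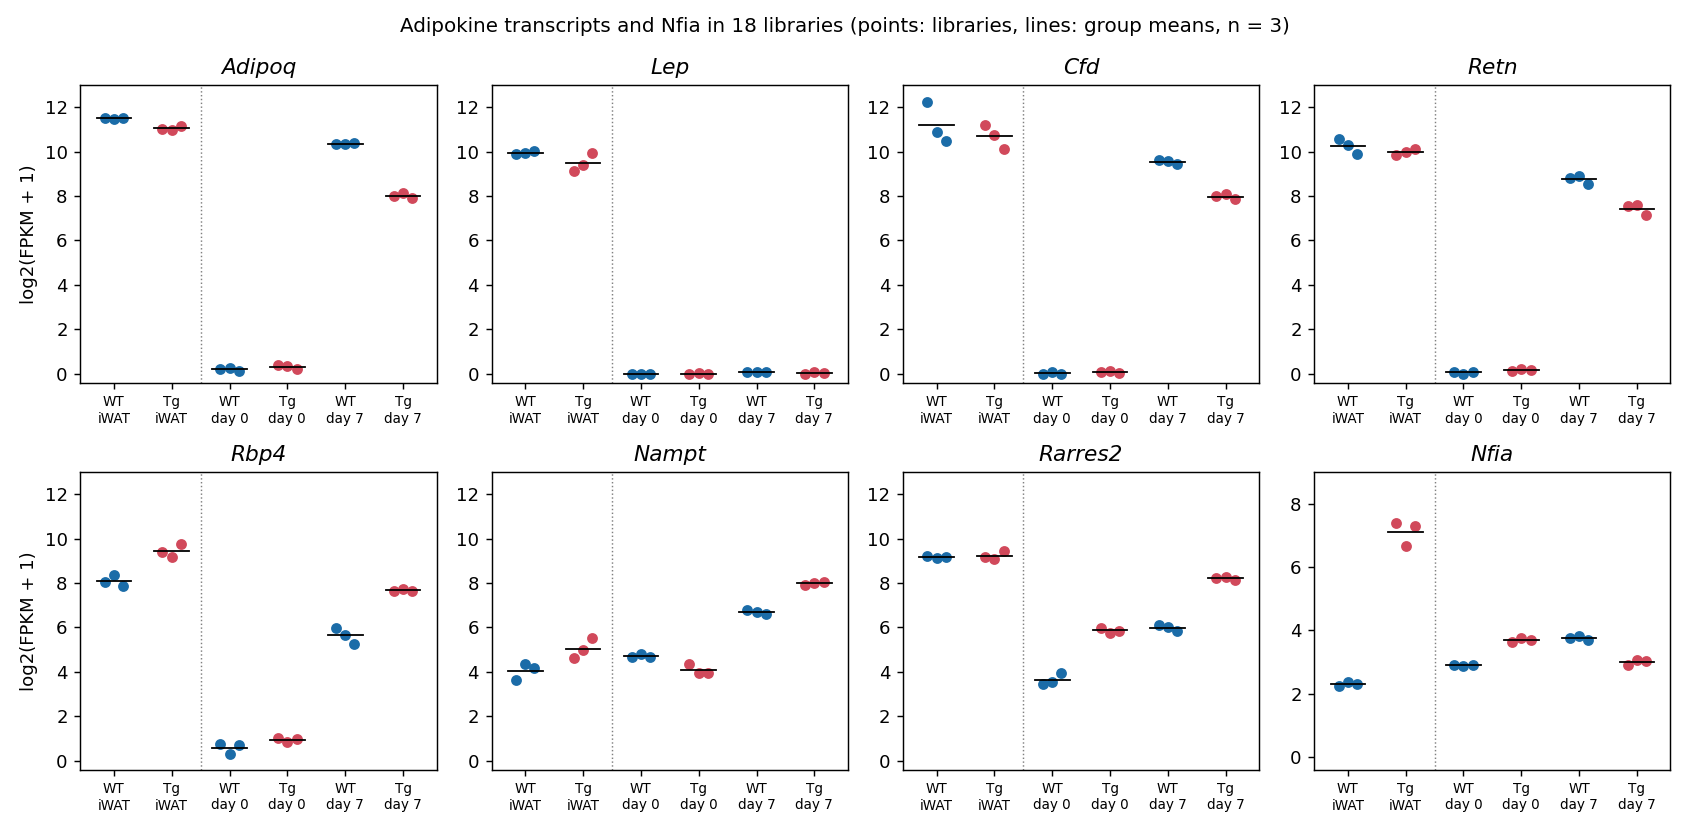
Level of each adipokine and of Nfia in 18 libraries, as log2(FPKM + 1) on the vertical axis, with WT in blue, NFIA-Tg (Tg) in red, a point per library and a line at each group mean (n = 3). The dotted line separates iWAT from cultures, whose levels are not comparable, and the Nfia panel has its own vertical scale; Adipoq, Cfd and Retn are lower at day 7 in the NFIA-Tg-labelled cultures (Adipoq 258 against 1295 FPKM) while Rbp4, Nampt and Rarres2 are higher.

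In NFIA-Tg iWAT, Rbp4 and Nampt rose, and the other 5 adipokines did not pass the test. Rbp4 went from 275 ± 50.1 FPKM (SD, n = 3) to 700 ± 142 FPKM, and Nampt from 15.9 ± 3.96 to 33.0 ± 10.7 FPKM. These 2 of 7 members stand beside a background of 11.4% of the 12396 genes tested that were called, 5.96% higher and 5.44% lower. In bulk tissue, fewer cells of a type and less RNA per cell cannot be told apart.

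Adipoq, the classical adiponectin transcript, was read at 2919, 2860 and 2929 FPKM in WT and at 2048, 2022 and 2274 FPKM in NFIA-Tg iWAT. All 3 NFIA-Tg libraries lay below all 3 WT libraries. The difference was -0.46 ± 0.14 (SE; 95% interval -0.79 to -0.13) and missed the threshold (limma adjusted p = 0.076). It passed with limma's variance model without a trend (adjusted p = 0.0338) or with robust moderation (0.0431). With quantile normalization it was -0.10 (adjusted p = 0.638), and the range over 17 alternatives was 0.0338 to 0.638.

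Lep stood at 934, 977 and 1045 FPKM in WT and at 558, 673 and 975 FPKM in NFIA-Tg iWAT. NFIA-Tg replicate 3 lay among the WT values and the other two lay below them. The difference of -0.46 ± 0.20 was not called (adjusted p = 0.174), and without that replicate it was -0.68 (adjusted p = 0.0375). The ratio of Lep to Adipoq, which does not depend on the scaling of a library and is used only to compare libraries, was 0.320, 0.342 and 0.357 in WT and 0.272, 0.333 and 0.429 in NFIA-Tg. The NFIA-Tg ratios spread on both sides of the WT ratios, and a two-sided exact permutation test of their logarithms gave p = 1.0, where 3 against 3 samples can go no lower than 0.1.

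Retn was read at 1528, 1241 and 944 FPKM in WT and at 927, 1023 and 1120 FPKM in NFIA-Tg iWAT. The groups overlapped (-0.25 ± 0.19, adjusted p = 0.419). Of the resistin-like paralogs, Retnla, which in mouse fat comes largely from macrophages, had medians of 381 FPKM in WT and 630 FPKM in NFIA-Tg and was not called, and Retnlb was at 0 in every library.

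Cfd had the widest spread of the 7. It was at 4861, 1884 and 1425 FPKM in WT iWAT and at 2352, 1729 and 1123 FPKM in NFIA-Tg. Its coefficient of variation in WT was 68.5%, larger than that of 98.7% of the 705 genes with a mean of at least 100 FPKM there, against 1.29% for Adipoq. The highest library, WT replicate 1, also held the most RNA of 7 erythroid markers. Their sums were 18463, 4602 and 4384 FPKM in WT replicates 1 to 3 and 5259, 2986 and 7037 FPKM in those of NFIA-Tg. Within NFIA-Tg the library with the highest sum had the lowest Cfd. The part of these markers in Cfd was not tested. The genotype difference of -0.50 ± 0.45 was not called (adjusted p = 0.496), and without WT replicate 1 it was 0.02.

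Rbp4 was at 265, 329 and 230 FPKM in WT and at 664, 580 and 857 FPKM in NFIA-Tg iWAT. Every NFIA-Tg library lay above every WT library. The rise of 1.34 ± 0.18 (95% interval 0.92 to 1.76; adjusted p = 0.00419) was called in 17 of 17 alternatives, with a highest adjusted p of 0.0207.

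Nampt was at 11.5, 19.2 and 17.1 FPKM in WT and at 23.4, 31.1 and 44.4 FPKM in NFIA-Tg iWAT. Here too the groups did not overlap, and the share of all genes without overlap in iWAT was not counted. Its rise of 0.99 ± 0.25 (adjusted p = 0.0398) was close to the threshold and was lost in 7 of 17 alternatives, among them the removal of WT replicate 1, 2 or 3 (adjusted p = 0.0897, 0.0529 and 0.0864) and of NFIA-Tg replicate 2 or 3 (0.0975 and 0.0955).

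Rarres2 was at 594, 560 and 567 FPKM in WT and at 580, 532 and 691 FPKM in NFIA-Tg iWAT. The WT values lay within the NFIA-Tg range. The difference was 0.06 ± 0.13 with a 95% interval of -0.24 to 0.36 (adjusted p = 0.802).

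Markers of several cell types moved with genotype in iWAT, where 5.96% of all genes tested rose and 5.44% fell. Of 12 endothelial markers, 6 fell and none rose, and their summed level was 1008 to 1048 FPKM in WT and 552 to 729 FPKM in NFIA-Tg. Of 8 skeletal muscle markers 3 were tested and 1 fell (124 to 183 against 13.3 to 42.0 FPKM, with Myod1 at 0 in all), and of 8 thermogenic adipocyte markers 4 of 6 tested rose (43.1 to 113 against 744 to 1057 FPKM). Macrophage markers summed to 1112 to 1403 FPKM in WT and 1094 to 1267 FPKM in NFIA-Tg, with 2 of 17 lower. Of the 25 mature adipocyte genes 3 rose and 1 fell, and their sums overlapped (32734 to 34617 against 32454 to 44185 FPKM). The part of these markers in the adipokine values was not tested.

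Before induction, at day 0, the cultures already differed by label in 2 adipokines: Rarres2 was higher and Nampt lower in the NFIA-Tg-labelled cultures. At that day 63.0% of the 12553 genes tested were called, 28.1% higher and 34.9% lower. The other 4 tested members entered the test through their day 7 levels.

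Rarres2 was at 9.86, 10.5 and 14.6 FPKM in the WT-labelled cultures and at 62.8, 53.0 and 56.2 FPKM in those labelled NFIA-Tg. The groups were far apart, by 2.22 ± 0.12 (adjusted p = 1.36e-08). Nampt was at 24.1, 27.3 and 24.8 FPKM and at 19.3, 14.3 and 14.3 FPKM, lower by label in every library (-0.65 ± 0.10, adjusted p = 7.87e-05). Both genes were thus present before induction.

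The other members were at the edge of detection at day 0. Over 70966863 WT-labelled and 76550961 NFIA-Tg-labelled reads, Adipoq had 13 and 23 reads, Cfd 1 and 4, Retn 4 and 11, Rbp4 48 and 91, and Lep 0 and 1. For Lep a count of 0 allows up to 0.0371 to 0.0419 FPKM per WT-labelled library (3 reads, counting error only). Adipoq, Cfd, Retn and Rbp4 did not pass the test with a pseudocount of 1 (adjusted p = 0.0841, 0.445, 0.473 and 0.0598). With a pseudocount of 0.1 all 4 were called, but for Cfd and Retn these calls rest on the few reads given above, and no direction is read from them.

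By label, markers of other states also differed at day 0, where 28.1% of all genes tested rose and 34.9% fell. All 10 markers of dividing cells fell (summed 346 FPKM against 136 to 146 FPKM), 13 of 24 tested mature adipocyte genes rose, and the 14 preadipocyte and stromal markers summed to 9020 to 9225 FPKM in the WT-labelled and 10175 to 11147 FPKM in the NFIA-Tg-labelled cultures, with 7 higher and 2 lower. Of the 25 mature adipocyte genes, 14 to 15 were under 1 FPKM in all day 0 libraries of a group. Genes that low could enter the test through their day 7 level, so that count depends on the filter. The part of these markers in the values of Rarres2 and Nampt was not tested.

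From day 0 to day 7 all 6 tested adipokines rose in the cultures of either label. Adipoq, Cfd, Retn and Rbp4 entered the test through their day 7 levels. Their rise thus depends on that filter, and the count of 6 is not read as a result. The background was 81.6% of genes called in the WT-labelled cultures (46.2% higher, 35.4% lower) and 87.2% in those labelled NFIA-Tg (45.7% higher, 41.5% lower). Reads summed over 3 libraries show the size of the rise better than the log2 scale for genes that started near 0. Adipoq went from 13 to 109328 reads in the WT-labelled cultures, 8707 times more per total read (exact 95% interval 5091 to 16350, counting error only), and from 23 to 22390 in those labelled NFIA-Tg, 1070 times (713 to 1688). Retn rose 9813 times (3832 to 36020) and 1580 times (883 to 3165).

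For Cfd the WT-labelled rise, from 1 read to 47276, was 48940 times with an interval of 8784 to 1933000, and in the NFIA-Tg-labelled cultures it was 4474 times (1747 to 16420). Rbp4 ran the other way, 96.9 times (73.0 to 132) in the WT-labelled and 223 times (181 to 277) in the NFIA-Tg-labelled cultures. The intervals here too hold counting error only, not the spread between libraries. For Rbp4 the WT-labelled day 0 libraries held 21, 7 and 20 reads. By limma voom on the recovered reads, the difference between the Rbp4 rises was 1.14 on the log2 scale and was not called (adjusted p = 0.175). Nampt rose 4.03 times (3.93 to 4.13) and 15.98 times (15.55 to 16.43). Rarres2 rose 5.40 times (4.98 to 5.86) in the WT-labelled and 5.24 times (5.06 to 5.43) in the NFIA-Tg-labelled cultures.

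Lep stayed at a few reads per library. It had 5, 5 and 5 reads in the WT-labelled and 0, 6 and 1 reads in the NFIA-Tg-labelled day 7 libraries, 0.0611 to 0.0717 and 0 to 0.0698 FPKM, and was not tested in any culture comparison. The WT-labelled sum was 0 reads at day 0 and 15 reads at day 7, 5 in each library. In the NFIA-Tg-labelled cultures, 1 read at day 0 and 7 reads at day 7 give a ratio of 7.69 with an interval of 0.988 to 346.6, which holds 1. The culture tables listed Eno1, a glycolysis gene that all cells use, at 0 to 0.0540 FPKM, so a value near 0 in these tables need not mean that a transcript was absent.

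At day 7 the tested adipokines split into 2 sets of 3. Adipoq, Cfd and Retn fell in the NFIA-Tg-labelled cultures, to 0.200, 0.336 and 0.401 of the WT-labelled mean, and Rbp4, Nampt and Rarres2 rose to 4.06, 2.47 and 4.69 times that mean. The background at day 7 was 80.9% of 12553 genes called, 29.8% higher and 51.1% lower, so that a call alone sets no member apart. The 6 differences were called in 25 of 25 alternatives. Those that change only the filter or the variance model, or leave out a day 0 library, cannot change the direction. In none of the 6 did the groups overlap. The share of all genes without overlap was not counted, so this too sets no member apart.

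Adipoq was at 1284, 1275 and 1325 FPKM in the WT-labelled against 259, 276 and 240 FPKM in those labelled NFIA-Tg, all at day 7. It fell by 2.32 ± 0.06 on the log2 scale (adjusted p = 3.99e-12). In rank by FPKM it went from place 8 to 13 among all genes to place 220 to 253.

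Cfd was at 789, 762 and 687 FPKM against 253, 269 and 231 FPKM, a fall of -1.57 ± 0.06 (adjusted p = 1.49e-10). Retn was at 444, 469 and 376 FPKM against 185, 190 and 142 FPKM, a difference of -1.32 ± 0.10 (adjusted p = 9.86e-08). In the NFIA-Tg-labelled cultures Adipoq and Cfd overlapped in level, while in the WT-labelled ones Adipoq lay above Cfd and Cfd above Retn in every library.

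Rbp4 was at 62.6, 50.1 and 37.2 FPKM in the WT-labelled cultures against 200, 214 and 195 FPKM (2.03 ± 0.15, adjusted p = 7.65e-08). Nampt was at 109, 102 and 95.4 FPKM against 241, 252 and 262 FPKM (1.30 ± 0.10, adjusted p = 5.81e-08). Rarres2 was at 68.8, 64.6 and 55.5 FPKM against 298, 312 and 277 FPKM (2.22 ± 0.12, adjusted p = 3.48e-09). Among the 7 members only, the most abundant at day 7 was Adipoq in each WT-labelled library and Rarres2 in each NFIA-Tg-labelled one.

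Over the 4 culture groups the order of levels differed between members. Nampt was highest in NFIA-Tg-labelled day 7, then WT-labelled day 7, WT-labelled day 0 and NFIA-Tg-labelled day 0, with no overlap between neighbours. For Rarres2 the NFIA-Tg-labelled cultures at day 0 (53.0 to 62.8 FPKM) overlapped the WT-labelled ones at day 7 (55.5 to 68.8 FPKM).

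Annotated neighbours can share reads with 2 members. In GENCODE vM21 Rarres2 overlaps Lrrc61 on the opposite strand and Nampt overlaps the noncoding Gdap10 on its own strand, while the other 5 overlap no gene. Lrrc61 stayed at 2.59 to 4.04 FPKM in the cultures. Gdap10 was at 5.71 to 8.04 FPKM in WT-labelled and 18.2 to 21.7 FPKM in NFIA-Tg-labelled day 7 cultures, and reads of Nampt and Gdap10 could not be told apart here.

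Other markers at day 7 moved with the label as well, where 29.8% of all genes tested rose and 51.1% fell. Of 14 preadipocyte and stromal markers 13 were tested, 12 fell and 1 rose (summed 1640 to 1841 against 310 to 418 FPKM, with Dpp4 at 0 in the NFIA-Tg-labelled cultures), and all 10 markers of dividing cells fell (664 to 693 against 289 to 310 FPKM). Thermogenic adipocyte markers rose in 7 of 7 tested (112 to 131 against 1083 to 1135 FPKM). The summed level of the 25 mature adipocyte genes was 27866 to 32149 FPKM in the WT-labelled and 28881 to 32488 FPKM in the NFIA-Tg-labelled cultures, and the groups overlapped. Macrophage markers summed to 61.9 to 77.6 against 346 to 358 FPKM, with 4 of 7 tested higher and 2 lower, and with Adgre1, Cd163, C1qa, C1qb and C1qc at 0 in both. The part of these markers in the adipokine values was not tested.

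**Figure D2:**
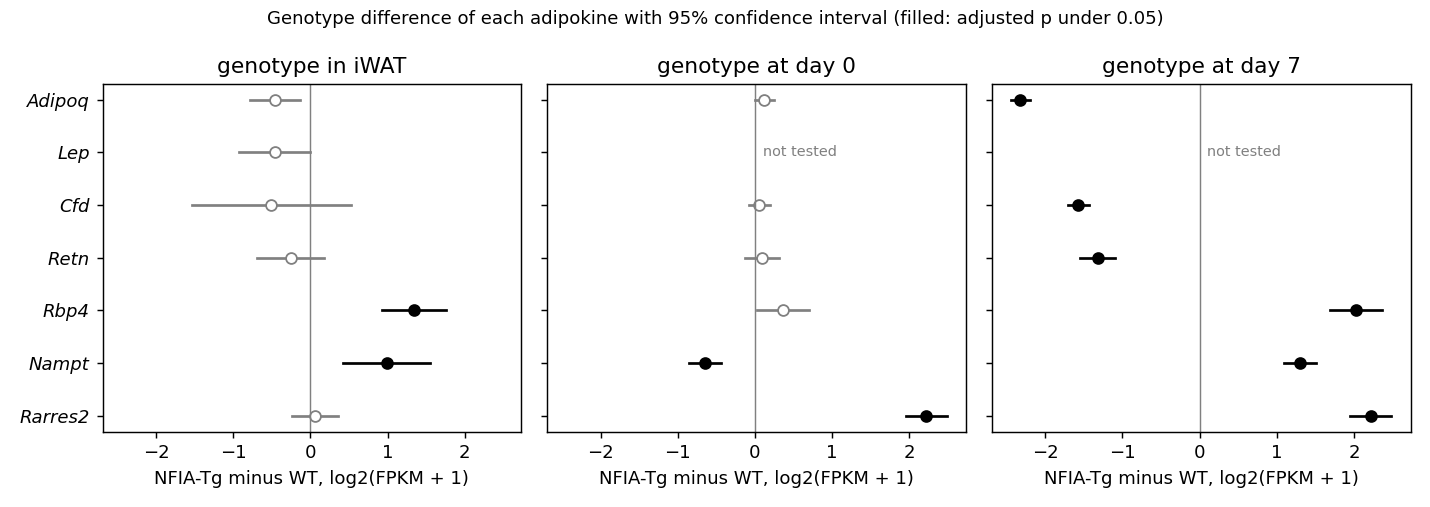
Difference between NFIA-Tg and WT for each adipokine on the log2(FPKM + 1) scale (horizontal axis) with its 95% interval, in iWAT, at day 0 and at day 7; filled points passed the test and Lep was not tested in cultures. Adipoq is at -0.46 in iWAT and -2.32 at day 7, and Rarres2 at 0.06 in iWAT and 2.22 at both culture days.

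The difference between NFIA-Tg-labelled and WT-labelled cultures changed from day 0 to day 7 for 5 of 6 tested members, against a background of 72.1% of genes called (29.5% higher, 42.6% lower). The interaction was -2.44 ± 0.08 for Adipoq, -1.63 ± 0.09 for Cfd and -1.41 ± 0.15 for Retn, and 1.67 ± 0.22 for Rbp4 and 1.95 ± 0.14 for Nampt (adjusted p at most 1.91e-05). Adipoq, Cfd, Retn and Rbp4 were near 0 at day 0 and entered the test through day 7. On the log2(FPKM + 1) scale any day 0 difference of theirs is understated. Their interactions therefore carry mainly their day 7 differences (-2.32, -1.57, -1.32 and 2.03). Nampt changed sides, from lower at day 0 to higher at day 7. With limma voom on the recovered reads, an alternative chosen after seeing the data, the Retn value was -2.65 and the Rbp4 value 1.14, and neither was called (adjusted p = 0.0757 and 0.175). For Rarres2 the interaction was -0.00 ± 0.17 with a 95% interval of -0.38 to 0.37 (adjusted p = 0.981).

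The genotype difference in iWAT was set against the difference by label at day 7 in 1 model, in which 54.3% of 13101 genes were called (35.8% higher, 18.5% lower). That model takes 1 spread per gene over tissue and cultures. For Adipoq its SE was smaller than that of the iWAT difference alone (0.13 against 0.14). The spread in tissue may thus be understated and these p-values too small. Adipoq (1.86 ± 0.13, adjusted p = 3.22e-07) and Retn (1.07 ± 0.24, adjusted p = 0.00263) had a less negative difference in tissue than at day 7, and Rarres2 a less positive one (-2.16 ± 0.15, adjusted p = 3.62e-07). None of these 3 was called in iWAT on its own. For Rbp4 the rise in tissue was smaller by 0.69 (-0.69 ± 0.27, adjusted p = 0.0449), a call kept in 10 of 23 alternatives. The difference was not called for Cfd (1.07 ± 0.52, adjusted p = 0.104; 1.59 and 0.00164 without WT iWAT replicate 1) or Nampt (-0.31 ± 0.29, 95% interval -0.94 to 0.31, adjusted p = 0.381). No value is given for Lep, which was near 0 in the cultures.

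The adiponectin receptors changed in opposite ways in tissue and culture. In iWAT 1 of 11 tested receptors rose and 2 fell, beside 5.96% and 5.44% of all genes. Their median was 0.15 against 0.05 over all genes tested. Adipor2, the adiponectin receptor linked to PPAR-alpha activity in liver, rose from 219 ± 15.5 to 310 ± 14.6 FPKM (0.50 ± 0.10, adjusted p = 0.0207). Adipor1 fell from 68.3 ± 5.30 to 52.4 ± 3.33 FPKM (-0.38 ± 0.10, adjusted p = 0.0495). Cdh13, the T-cadherin that binds adiponectin multimers, fell from 41.5 ± 2.92 to 26.6 ± 3.85 FPKM (adjusted p = 0.0188). At day 7 Adipor2 fell from 220 ± 4.12 to 121 ± 3.22 FPKM (-0.85 ± 0.04) and Adipor1 rose from 39.4 ± 1.91 to 47.0 ± 1.71 FPKM (0.25 ± 0.04), among 2 of 6 tested receptors that rose and 3 that fell. Of all genes, 29.8% rose and 51.1% fell at day 7. The genotype difference in iWAT against that at day 7 was 1.36 ± 0.10 for Adipor2 (adjusted p = 5.2e-07) and -0.62 ± 0.10 for Adipor1 (adjusted p = 0.000351).

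Adipor2 also rose with differentiation, from 17.7 ± 0.58 FPKM at day 0 to its day 7 level in the WT-labelled cultures (3.56 ± 0.04). Cap1, an intracellular protein reported to bind resistin, fell at day 7 from 65.2 ± 0.87 to 41.8 ± 1.43 FPKM. The chemerin receptor gene Cmklr1 was at 133 ± 28.9 FPKM in WT and 186 ± 25.8 FPKM in NFIA-Tg iWAT and was not called (adjusted p = 0.115), and its highest culture library had 1.52 FPKM. Lepr had medians of 0.519 and 0.551 FPKM in iWAT and was at 0 in all 3 NFIA-Tg-labelled day 7 libraries, against 0.183 to 0.233 FPKM in the WT-labelled ones.

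Among genes that process or work with the adipokines, at day 7 Ero1l, the oxidase that helps adiponectin form multimers in the endoplasmic reticulum, rose from 56.1 ± 8.20 to 900 ± 96.8 FPKM in the NFIA-Tg-labelled cultures (3.99 ± 0.10, adjusted p = 4.87e-12), while Adipoq fell. The protein disulfide isomerase gene Pdia4 rose from 103 ± 2.15 to 267 ± 17.9 FPKM. Nnmt, which uses up nicotinamide, the substrate of Nampt, fell from 92.5 ± 6.81 to 20.1 ± 0.56 FPKM (-2.14 ± 0.06). In this list 6 of 20 tested genes rose and 11 fell at day 7, shares near those of all genes (29.8% and 51.1%), with a median of -0.37 against -0.17 over all genes.

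In iWAT 2 of 21 genes of the list rose and 1 fell, beside 5.96% and 5.44% of all genes. C3, the complement protein whose cleavage the adipsin pathway drives, rose from 114 ± 22.7 to 498 ± 116 FPKM (2.104 ± 0.19, adjusted p = 0.000884), whereas Cfd was not called. At day 7 C3 fell from 202 ± 5.30 to 75.7 ± 5.72 FPKM (-1.41 ± 0.11), and iWAT differed from day 7 by 3.51 ± 0.22 (adjusted p = 1.73e-07). Gstk1, a protein also known as DsbA-L that promotes adiponectin multimers, rose in iWAT from 47.9 ± 4.72 to 69.0 ± 4.55 FPKM, and Plod3, a lysyl hydroxylase, fell from 70.5 ± 1.33 to 50.9 ± 2.35 FPKM.

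Among transcription factors, Pparg was not called at day 7 (70.7 ± 1.56 against 72.5 ± 1.19 FPKM; 0.04 ± 0.05, adjusted p = 0.504) or in iWAT (113 ± 24.6 against 122 ± 40.9 FPKM, adjusted p = 0.874). Cebpa fell at day 7 from 162 ± 13.4 to 70.9 ± 4.32 FPKM (-1.18 ± 0.08, adjusted p = 2.88e-08), and Rxra, the partner of PPARG, from 31.5 ± 1.11 to 12.2 ± 0.64 FPKM (-1.31 ± 0.05). Srebf1, a driver of lipid synthesis genes, fell from 216 ± 13.1 to 127 ± 7.47 FPKM. Ebf2, a factor of brown and beige fat cells, rose at day 7 from 4.89 ± 0.20 to 10.1 ± 0.57 FPKM and in iWAT from 3.10 ± 0.29 to 7.97 ± 0.48 FPKM. At day 0 Pparg (3.69 ± 0.02 against 15.2 ± 1.23 FPKM) and Cebpa (7.44 ± 0.41 against 37.3 ± 4.001 FPKM) were both higher in the NFIA-Tg-labelled cultures. In all, 5 of 19 regulators rose and 11 fell at day 7, beside 29.8% and 51.1% of all genes, and 4 of 19 rose and none fell in iWAT, beside 5.96% and 5.44%.

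Of other secreted products of fat, 5 of 32 tested rose and 5 fell in iWAT, beside 5.96% and 5.44% of all genes. Nrg4, a product of thermogenic fat cells, rose from 30.1 ± 3.02 to 66.7 ± 3.47 FPKM, C1qtnf7, a relative of adiponectin, from 5.31 ± 0.99 to 13.6 ± 1.31 FPKM, while haptoglobin (Hp) fell from 3404 ± 491 to 1017 ± 199 FPKM and the Wnt inhibitor Sfrp5 from 467 ± 120 to 139 ± 13.2 FPKM. At day 7, 10 of 33 rose and 17 fell, shares near those of all genes (29.8% and 51.1%). Fgf21, a stress-induced metabolic hormone, rose from 31.3 ± 1.93 to 146 ± 6.18 FPKM and Nucb2, the precursor of nesfatin, from 9.56 ± 0.33 to 42.4 ± 4.37 FPKM, while Fstl1 fell from 179 ± 14.5 to 24.0 ± 3.97 FPKM and the adiponectin relative C1qtnf1 from 7.25 ± 0.51 to 1.30 ± 0.02 FPKM.

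Among the mature adipocyte genes at day 7, 8 of 24 tested rose and 11 fell, beside 29.8% and 51.1% of all genes. Fasn and Acaca, enzymes of fatty acid synthesis, fell from 697 ± 41.2 to 91.5 ± 3.97 FPKM and from 127 ± 5.53 to 31.6 ± 2.55 FPKM, whereas Cidea, whose protein sits on lipid droplets of thermogenic fat cells, rose from 0.169 ± 0.12 to 23.5 ± 0.32 FPKM and the fatty acid transporter gene Cd36 from 537 ± 8.74 to 782 ± 28.9 FPKM. With differentiation, 23 of 24 rose in the WT-labelled and 22 in the NFIA-Tg-labelled cultures, beside 46.2% and 45.7% of all genes. At day 0, 15 of the 25 listed were under 1 FPKM in all WT-labelled libraries and 14 in all NFIA-Tg-labelled ones. Genes that low at day 0 could enter the test through their day 7 level, so these counts depend on the filter. In iWAT the amino acid transporter gene Slc7a10 fell from 238 ± 21.4 to 94.4 ± 5.73 FPKM and Gpd1, an enzyme of glycerol synthesis, rose from 487 ± 88.0 to 878 ± 209 FPKM.

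**Figure D3:**
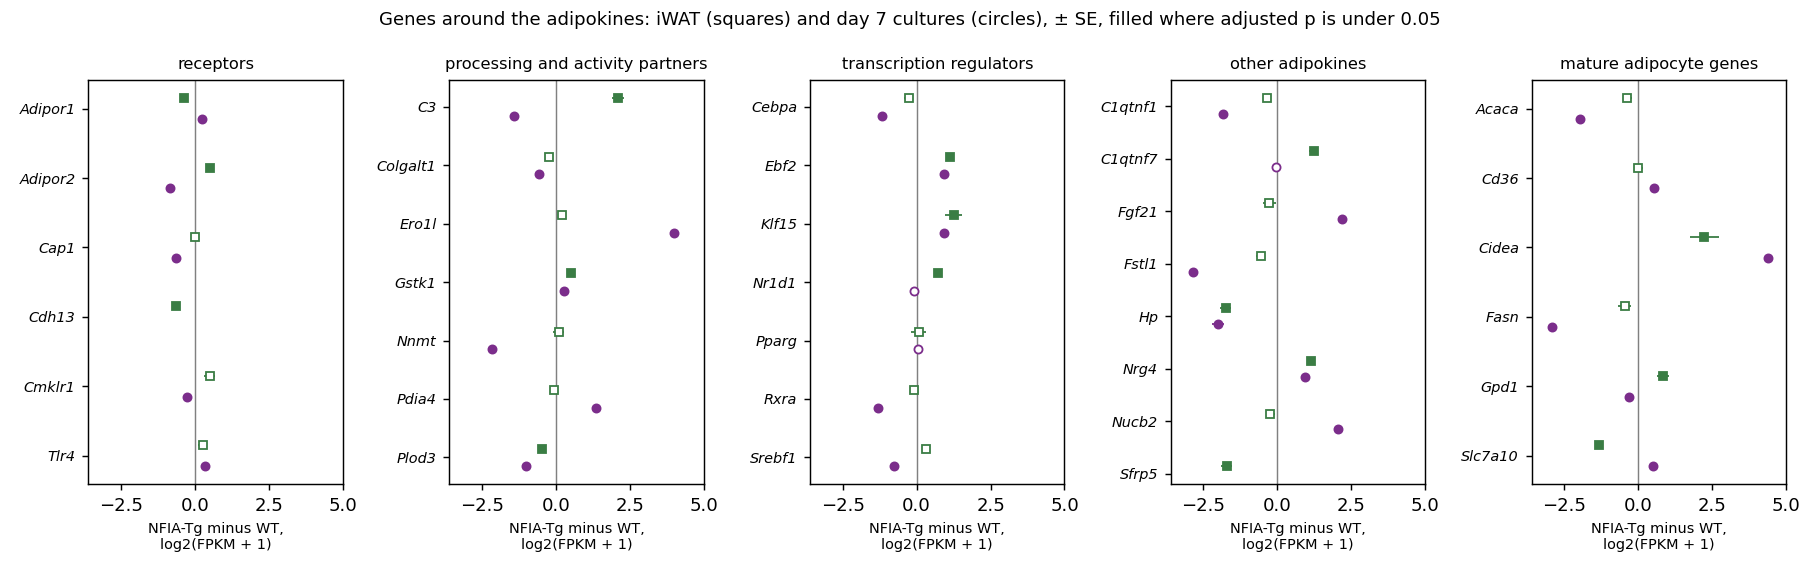
Difference between NFIA-Tg and WT (log2(FPKM + 1), horizontal axis, ± SE) of genes related to the adipokines, chosen by the smallest adjusted p in each direction in iWAT or at day 7, in iWAT (green squares) and day 7 cultures (purple circles); filled symbols passed the test, and a missing symbol means not tested. Ero1l is at 3.99 at day 7 and C3 at 2.104 in iWAT against -1.41 at day 7.

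Likeness was measured as the root mean square difference of log2(FPKM + 1) over the 18 samples, centred per gene within tissue and within cultures, among 8674 genes. Adipoq, Cfd and Retn were close to each other (0.442 for Adipoq and Cfd, 0.442 for Cfd and Retn, 0.507 for Adipoq and Retn, where the median over all genes searched was 3.67 for Adipoq). The other gene among the 3 nearest to Adipoq was Cidec (0.565), which encodes a lipid droplet protein. For Retn, the lipid droplet gene Plin1 (0.481) and Adig (0.485) were nearer than Adipoq. The 12 culture samples span the rise from day 0 to day 7, which these values include. Rbp4 was closest to Plin5 (0.301), Apoc1 (0.360) and Slc25a34 (0.445). Nampt was closest to Ppa1 (0.290), Uqcrc2 (0.298) and Echs1 (0.303), and Rarres2 to Fxyd1 (0.232), Alpl (0.437) and Ndrg2 (0.438). The genes nearest to Lep, Vwf (0.130), Eno1 (0.133) and Gimap4 (0.138), were, like it, near 0 in the cultures.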

How the data were processed

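RNA-seq of 18 samples in 6 groups was grouped by the sample labels. Libraries were stranded and poly(A)-selected, per the labels' protocols. Build mm9, StringTie 2.1.1 and STAR 2.7.8a appear in the submitters' processing notes, and no source states the strand setting or the annotation. The authors deposited 1 FPKM value and a length per gene and sample, per the file headers. In iWAT, 410 entries sharing 180 symbols were summed. In cultures, FPKM times length gave whole reads for 100% of values (tolerance 0.01).

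Genes with at least 1 FPKM in at least 3 fitted samples were tested with limma 3.58.1 (R 4.3.3; lmFit, eBayes with trend) on log2(FPKM + 1), two-sided, Benjamini-Hochberg adjusted over all genes tested. Genotype in iWAT used 6 samples, the culture comparisons 12 samples in 1 fit, and iWAT against day 7 12 samples. The fit was tested on simulated data. Pairs of replicates differed beyond counting noise. Alternatives were other pseudocounts, filters, scalings and variance models, the replicate number as a block, and each replicate left out. The members and lists were chosen with earlier results of these data known. Named beside the members were, per list and comparison, the 2 called genes of smallest adjusted p in each direction (mean of at least 5 FPKM), of which some are left out for space, and Pparg, Cebpa, Adipor1, Adipor2, Lepr and Cmklr1. Retnla, Retnlb, Eno1 and the overlapping genes were added after their values were seen.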

Additional observations from a re-analysis of the deposited data

Results flagged for a closer look

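The difference between NFIA-Tg-labelled and WT-labelled cultures changed for 5 adipokines between day 0 and day 7, by the test of the difference itself (limma, 12 samples): -2.44 for Adipoq, -1.63 for Cfd, -1.41 for Retn, 1.67 for Rbp4 and 1.95 for Nampt on the log2 scale. In that test 72.1% of all genes were called, and Adipoq, Cfd, Retn and Rbp4 were near 0 at day 0. With voom on the recovered reads Retn was at -2.65 and Rbp4 at 1.14, and neither was called. The genotype difference in iWAT also differed from that by label at day 7 for 4 adipokines: 1.86 for Adipoq, 1.07 for Retn, -0.69 for Rbp4 and -2.16 for Rarres2. Of all genes 54.3% were called in that test, and the Rbp4 call was kept in 10 of 23 alternatives. The value of -2.16 stands beside a Rarres2 difference of 2.22 at both culture days. In all of these contrasts the cultures carry the NFIA-Tg label, while Nfia at day 7 was lower in the NFIA-Tg-labelled libraries.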

How the results depend on the processing

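Of 1020 values computed for 44 results under the alternatives, 969 kept their direction and side of the threshold, 22 lost a call, 20 gained one and 9 changed sign; counts outside 1.5 times are given here. The number of adipokines called in iWAT, 2, was 1 with no filter on low values and 1 to 2 when 1 replicate was left out. At day 0 it was 2, and 6 with a pseudocount of 0.1, 4 with a pseudocount of 0.5, 4 with TPM and 2 to 3 with a replicate left out. The interaction count was 5, and 3 with voom on recovered reads. The Cfd difference in iWAT was -0.87 to 0.018 with a replicate left out (0.018 without WT replicate 1), that of Rarres2 -0.046 to 0.14 (-0.046 without NFIA-Tg replicate 3), and the Rarres2 interaction was 0.091 with median-of-ratios scaling and -0.16 to 0.10 with a replicate left out, none of them called. The log2 difference of the Lep to Adipoq ratio in iWAT was -0.17 to 0.16 with a replicate left out; it was not run in cultures, where 5 of 6 libraries at day 0 and 1 of 6 at day 7 had no Lep read and the others had 1 to 6. Genes called in iWAT numbered 1413, and 934 with no filter, 814 and 617 without WT replicates 2 and 3, and 638 and 745 without NFIA-Tg replicates 2 and 3. The genotype difference was called between iWAT and day 7 for 4 members, and for 3 to 6 with a replicate left out. The count of 6, without NFIA-Tg iWAT replicate 3, includes Lep, which was near 0 in the cultures and is not read. The cause was not tested.

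Scalings moved the median of all genes by more than 0.1 at day 7 (median-of-ratios 0.13, quantile 0.15), in the differentiation of WT (TPM -0.17, quantile -0.12) and NFIA-Tg (TPM -0.25), in the interaction (quantile 0.14) and in iWAT against day 7 (median-of-ratios -0.22, quantile -0.16). Higher and lower calls were then 4701 and 5185 with quantile scaling at day 7 (3746 and 6409 as reported), 4932 and 5836 with TPM and 4784 and 5479 with quantile scaling for WT (5796 and 4450), 4911 and 6780 with TPM for NFIA-Tg (5741 and 5209), 4700 and 4348 for the interaction (3701 and 5350), and 3213 and 3451 or 3627 and 3133 for iWAT against day 7 (4690 and 2430).

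Same-numbered replicates deviated together weakly or not at all (r of 0.110, 0.115 and 0.007 in iWAT, and -0.108 to 0.156 in cultures). These values show no clear pairing by number, but with so few samples they cannot exclude it. With the replicate number as a block, 2, 2, 6, 6, 6, 5 and 4 adipokines were called in the 7 comparisons, as without it. In iWAT against day 7 the block gave the Cfd difference a call across all genes (limma adjusted p = 0.00641, 12 samples) and took that of Rbp4 (limma adjusted p = 0.0742). The log2 difference of the Lep to Adipoq ratio was -0.0015 with the block, as without it.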
